A study of Mus musculus with 2 samples.

Results

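Major histocompatibility complex (MHC) genes were followed in γδ T cells sorted from mouse lung. The genes were all rows whose symbol starts with H2-, together with B2m, Cd74, Nlrc5 and Ciita, which gave 38 of the 32285 genes in the tables. The tables came from 2 droplet single-cell RNA-seq libraries, 1 per group, made from uninfected mice aged 5 to 7 weeks. WT cells came from strain C57BL/6NCrl and were sorted as Vγ1-negative γδ T cells, while the KO cells were Vγ1-positive γδ T cells of strain B6.Cg-Tcrgtm1lku, labelled B6.Vg4-/-Vg6-/-. Animals of both sexes were used. How many animals were pooled, and where the deletion begins and ends, is not given in the sources used here. With 1 library per group no test between groups was possible. Strain, receptor gate, library and any difference between the pooled animals change together and cannot be told apart.

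MHC class I molecules sit on almost all nucleated cells and show peptides from inside the cell to CD8 T cells. They consist of a heavy chain and the light chain β2-microglobulin, encoded by B2m. H2-K1 and H2-D1 encode the classical heavy chains, while the Q, T and M genes encode non-classical ones with narrower ligands or receptors, among them H2-T22, a known ligand of some γδ T cell receptors. Class II molecules show peptides taken up from outside to CD4 T cells and are typical of B cells, dendritic cells and macrophages. Mouse T cells make little or no class II. Their assembly needs the invariant chain (Cd74), H2-DM helps to load their peptides and H2-O holds H2-DM back. Nlrc5 and Ciita are the main transactivators of class I and class II genes, and interferons raise class I transcription.

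The promoters of class I genes carry an enhancer with a kappa B element and, like class II promoters, a Y box, and these letters were searched in the 250 bases before each gene start. The sequences below are those of the genes on which the comparisons turn, as given by RefSeq for GRCm38.p6, 5′ to 3′ on the strand of the gene, and 32 of the 38 genes had one. Capitals mark matches on either strand to the kappa B element of enhancer A as it stands in H2-K1 (GGGGATTCCCC, or GGGGATTCCC as in H2-Q7, without its last base and lying inside it), the Y box (CTGATTGG, read as CCAATCAG on the other strand), an interferon response element (TTTC, any 2 bases, TTTC) and an X box core (AGCAAC). They are from chr17:35424600-35424849 (plus strand, H2-Q6), chr17:35438905-35439154 (plus, H2-Q7), chr17:34000348-34000597 (minus, H2-K1), chr17:35262844-35263093 (plus, H2-D1), chr17:36042743-36042992 (minus, H2-T22), chr17:34287824-34288073 (minus, H2-Aa) and chr17:34238655-34238904 (plus, H2-Ob).
H2-Q6: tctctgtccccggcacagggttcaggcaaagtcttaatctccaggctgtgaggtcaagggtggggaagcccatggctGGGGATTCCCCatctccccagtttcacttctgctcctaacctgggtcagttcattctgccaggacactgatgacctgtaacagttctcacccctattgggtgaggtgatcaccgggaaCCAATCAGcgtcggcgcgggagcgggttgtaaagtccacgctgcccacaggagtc
H2-Q7: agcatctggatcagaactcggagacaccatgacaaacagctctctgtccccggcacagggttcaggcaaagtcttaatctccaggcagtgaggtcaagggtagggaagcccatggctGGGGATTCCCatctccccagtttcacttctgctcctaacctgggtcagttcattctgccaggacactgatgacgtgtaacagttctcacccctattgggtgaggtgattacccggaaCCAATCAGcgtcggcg
H2-K1: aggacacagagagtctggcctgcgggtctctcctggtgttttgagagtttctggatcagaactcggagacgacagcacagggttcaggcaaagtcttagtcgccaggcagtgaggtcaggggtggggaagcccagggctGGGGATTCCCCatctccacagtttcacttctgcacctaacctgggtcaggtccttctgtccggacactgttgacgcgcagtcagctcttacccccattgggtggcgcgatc
H2-D1: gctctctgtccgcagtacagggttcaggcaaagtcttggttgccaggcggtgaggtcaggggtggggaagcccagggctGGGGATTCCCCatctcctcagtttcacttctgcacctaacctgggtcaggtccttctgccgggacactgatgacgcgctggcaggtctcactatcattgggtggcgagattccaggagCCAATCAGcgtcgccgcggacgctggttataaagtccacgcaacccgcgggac
H2-T22: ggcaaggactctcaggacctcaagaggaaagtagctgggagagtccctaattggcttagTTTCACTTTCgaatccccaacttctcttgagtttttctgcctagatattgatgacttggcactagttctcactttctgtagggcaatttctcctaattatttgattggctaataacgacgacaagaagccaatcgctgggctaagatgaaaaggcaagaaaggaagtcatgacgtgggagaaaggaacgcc
H2-Aa: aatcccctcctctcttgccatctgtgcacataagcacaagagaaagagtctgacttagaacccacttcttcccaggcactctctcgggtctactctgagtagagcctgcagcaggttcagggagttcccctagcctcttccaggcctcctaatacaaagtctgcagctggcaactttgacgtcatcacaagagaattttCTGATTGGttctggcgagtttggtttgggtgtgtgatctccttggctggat
H2-Ob: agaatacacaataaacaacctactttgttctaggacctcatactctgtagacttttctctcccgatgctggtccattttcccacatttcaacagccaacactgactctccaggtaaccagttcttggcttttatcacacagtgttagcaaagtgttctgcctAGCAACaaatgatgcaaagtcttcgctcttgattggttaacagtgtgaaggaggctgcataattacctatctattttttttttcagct
The whole kappa B element stood in the promoters of H2-K1, H2-D1 and H2-Q6 and in 0.0304% of 32851 RefSeq promoters of the same length. H2-Q7 held it without its last C, a form found in 0.0852% of them. The aligned part of the H2-Q6 and H2-Q7 windows had 205 identical and 5 different bases. The Y box was found for 16 of the genes, against 3.83% of all promoters, and the interferon response element for B2m, H2-T22 and H2-T23, against 2.98%. Only this 1 pattern was searched, so a promoter without a match may hold another form of the element. The similar stretch tttcacttct after the kappa B element of H2-K1, H2-D1, H2-Q6 and H2-Q7 was not counted. The X box core was found for H2-Eb1, H2-Eb2, H2-Oa and H2-Ob, against 12.2%. A match describes letters and is no measure of binding. The transcripts of some members are also alike: of all 50-base stretches in GENCODE M21 transcripts, 68.0% of those of H2-Q6, 73.6% of H2-Q7 and 65.5% of H2-T22 occurred in no other gene, against 100% for B2m and 90.4% for H2-K1. H2-T22 shared most with H2-T10 (31.2%). Within the first 500 bases of the transcripts the shares were 75.3% for H2-Q6, 55.5% for H2-Q7, 59.8% for H2-T22, 100% for B2m and 89.1% for H2-K1. Which of H2-Q6 and H2-Q7 has more stretches of its own thus depends on the part of the transcript read. Reads from the shared stretches cannot be placed on 1 gene, so the values of H2-Q6, H2-Q7 and H2-T22 are less certain than those of B2m or H2-K1. For H2-Ke6, an enzyme gene of the MHC region that encodes no MHC molecule, only 29.5% of the stretches were its own.

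After filtering, 2505 of 2520 WT cells and 6634 of 6688 KO cells were kept, with a median of 3288 and 3521 unique molecular identifiers (UMIs, 1 per captured transcript) per cell. The libraries had 23 cell barcodes in common. The labels were checked with the receptor genes: 30.1% of WT cells held a Tcrg-V6 UMI against 0 of 6634 KO cells, which allows a share of up to 0.0452%, and Tcrg-V1 had UMIs in 7.82% and 43.4%. Tcrg-V4 went against the label, since 14.9% of KO cells held a UMI (21.4% of WT cells). Among cells with a Lyz2 or Cd79a UMI and no T cell marker UMI, the share with Tcrg-V4 was 1 of 60 in WT (median 2479 UMIs) and 0 of 31 in KO (median 2169 UMIs), where 0 allows up to 9.68%. The second library is therefore called KO-labelled, and every direction between libraries rests on the label. WT cells held a UMI of a Y-linked gene in 24.5% and KO-labelled cells in 0.467%, so the share of cells from male mice also differed. The gene Cd3e of the T cell receptor complex had UMIs in 83.7% and 89.2% of cells.

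Of the 38 genes, 22 had at least 30 UMIs over both libraries. H2-T3, H2-M1, H2-M9, H2-M11 and the 6 H2-M10 genes had none, and H2-Q1, H2-Q10, H2-M2, H2-M5, H2-Eb2 and Ciita had 1 to 15. Levels below are counts per 1000000 UMIs (CPM) over the summed cells of a group, with exact 95% Poisson intervals, and ratios are given on the log2 scale with exact conditional 95% intervals. All intervals cover counting error only, not the spread between animals or libraries. A member counts as higher or lower by 2-fold where its log2 ratio is at least 1 or at most -1 and it has at least 30 UMIs over both groups of cells. Cells were first split by Lyz2, the lysozyme gene of macrophages and neutrophils, and Cd79a, a chain of the B cell receptor. Cells with no UMI of either gene, 2382 in WT and 6504 in KO-labelled, are called reference cells.

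Reference cells of both libraries held high and similar levels of classical class I. H2-K1 stood at 3515 (3475 to 3555) in WT and 3328 (3305 to 3350.3) in KO-labelled cells, H2-D1 at 3103 (3066 to 3141) and 2992 (2971 to 3013), and B2m at 2537 (2504 to 2572) and 2625 (2605 to 2645) CPM. The heavy chains of all classical and non-classical genes together came to 7825 and 8280.0 CPM in KO-labelled and WT cells, a log2 ratio of -0.082 (-0.094 to -0.069). The non-classical genes differed more. H2-Q6 and H2-Q7 both encode the Qa-2 antigen. H2-Q6 was lower in KO-labelled cells, at 274 (268 to 281) against 416 (402 to 429.9) CPM, a log2 ratio of -0.60 (-0.66 to -0.54), while its neighbour H2-Q7 was at 507 and 544 (-0.10, -0.15 to -0.054). H2-T22 was higher, at 163 (158 to 168) against 114 (107 to 121) CPM, a log2 ratio of 0.52 (0.42 to 0.62). H2-M3, which presents N-formylated peptides, was at 34.8 and 27.7 CPM (0.33, 0.12 to 0.54) in KO-labelled and WT cells, and H2-T23, which encodes Qa-1, at 108 and 128 (-0.24, -0.34 to -0.13). H2-Q4 was at 412 and 427 CPM, Nlrc5 at 64.2 and 60.2 and H2-Ke6 at 51.3 and 66.2, and the rare H2-T24 and H2-Q2 stood between 1.07 and 4.51 CPM in both libraries.

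Class II genes were low in reference cells, and most were lower in the KO-labelled library. Cd74 was at 15.5 and 86.1 CPM in KO-labelled and WT cells (-2.47, -2.65 to -2.29 on the log2 scale), H2-Aa at 1.82 and 13.4 (-2.88, -3.41 to -2.38), H2-Ab1 at 1.78 and 9.62 (-2.44, -2.99 to -1.89) and H2-Eb1 at 1.34 and 12.9 (-3.27, -3.87 to -2.70). H2-DMb1, a chain of the peptide editor H2-DM, was at 0.633 and 2.02 (-1.67, -2.76 to -0.60). The other chain of H2-DM, H2-DMa, went the opposite way, at 13.5 and 6.65 CPM (1.02, 0.61 to 1.46). The H2-O chain H2-Ob was at 20.8 and 13.4 CPM (0.63, 0.34 to 0.94) and its partner H2-Oa at 16.7 and 14.6. H2-DMb2 had 3 and 1 UMIs in WT and KO-labelled reference cells and Ciita 1 and 2. Of the 21 members with at least 30 UMIs in this comparison, 1 was higher by at least 2-fold in KO-labelled cells and 5 were lower, where 3.12% and 5.57% of all genes were, and all of these members were class II genes. The H2-DMb1 ratio went to -0.88 with the mean of per-cell CPM and that of H2-DMa to 0.93 after thinning to 2000 UMIs, both within 2-fold. The summed markers of other cells went both ways. The 8 dendritic markers were lower in the KO-labelled library, at 4.55 CPM with UMIs in 1.65% of cells against 10.8 CPM and 3.44% in WT. The 5 epithelial markers were at 24.5 against 401 CPM, the myeloid list at 161 against 199 and the natural killer list at 22.1 against 31.2. Higher in the KO-labelled library were the B cell list, at 69.7 CPM with UMIs in 20.7% of cells against 51.2 CPM and 13.4%, and the endothelial list, at 61.6 against 55.2 CPM. Reference cells without UMIs of other cell type markers numbered 1101 in WT and 2933 in KO-labelled, 46.2% and 45.1% of all reference cells. In them the sum of H2-Aa, H2-Ab1, H2-Eb1 and Cd74 was 58.7 and 16.2 CPM. Over the 21 members in all reference cells the median log2 ratio was -0.079, against 0.031 over all genes.

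Most reference cells held no UMI of the 4 genes H2-Aa, H2-Ab1, H2-Eb1 and Cd74, whose sum is called the class II sum below, and few cells held many of the UMIs. WT reference cells held none in 90.6% (89.4 to 91.7, exact binomial interval), and KO-labelled reference cells in 95.6% (95.1 to 96.1). In WT, 11 cells with 10 or more held 659 of the 1028 UMIs (64.1%), and in the KO-labelled library 5 such cells held 123 of 518 (23.7%). Of the 11 WT cells, 10 had a UMI of the T cell list, 9 of the myeloid list and 4 of the B cell list. Of the 2371 WT reference cells with under 10, 96.5% had a UMI of the T cell list, 42.9% of the myeloid list and 13.2% of the B cell list. Without the cells with 10 or more, the class II sum was 44.2 CPM in WT and 15.6 in KO-labelled reference cells, from 122 and 20.5 with them. The ratio of Cd74 to H2-Aa UMIs was 6.42 (5.26 to 7.89) in WT reference cells, 4.0 (3.67 to 4.36) in WT cells with a Lyz2 UMI and 4.38 (3.97 to 4.83) in those with a Cd79a UMI. The corresponding ratios were 8.54 (6.28 to 11.9), 4.68 (4.15 to 5.28) and 5.31 (4.75 to 5.95) in the KO-labelled library. The part of free RNA and of cells captured together in the low class II level was not tested.

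**Figure D1:**
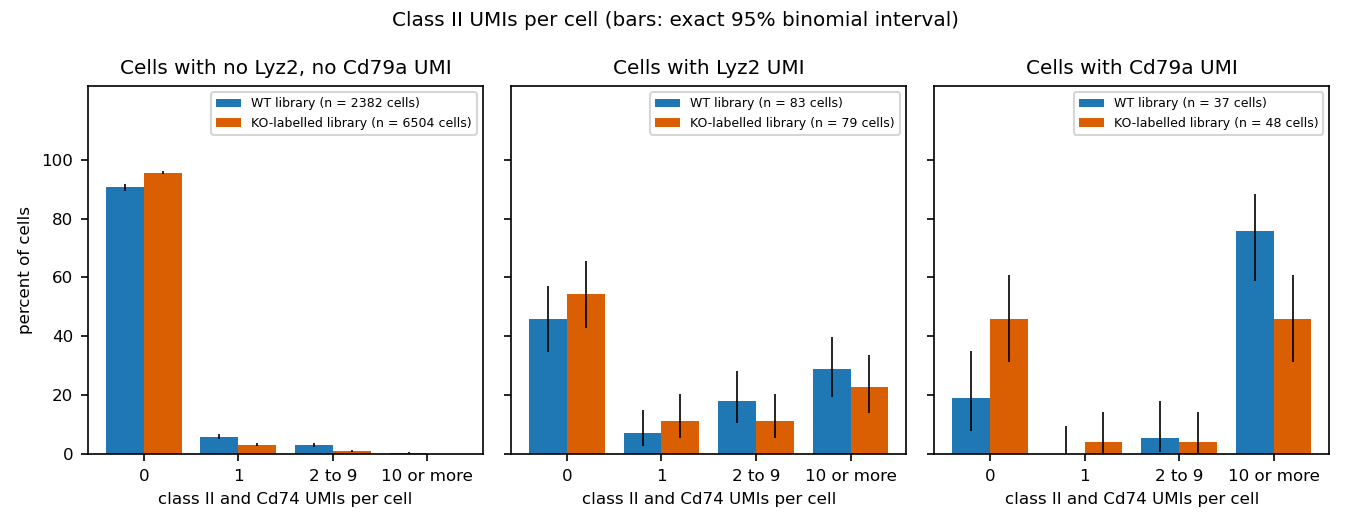
Share of cells (percent, bars from 0 with exact 95% binomial intervals) by the summed UMIs of H2-Aa, H2-Ab1, H2-Eb1 and Cd74 per cell, for WT (blue) and KO-labelled (orange) cells with no Lyz2 and no Cd79a UMI, a Lyz2 UMI or a Cd79a UMI. Reference cells sit at 0 UMIs in 90.6% and 95.6%, while 75.7% of WT and 45.8% of KO-labelled Cd79a-positive cells hold 10 or more.

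Genes that prepare peptides for class I were at close levels in the libraries. Of 13 antigen processing genes, 0 were higher and 0 lower by 2-fold. The widest log2 ratios of KO-labelled over WT reference cells were those of Tap1 (0.47, 0.33 to 0.62), a subunit of the peptide transporter, Psmb9 (0.39) of the immunoproteasome, the chaperone gene Calr (-0.38) and Psme1 (0.35). Of 10 interferon-related genes 0 passed 2-fold, with Ifit3 at 0.62, Irf1 at 0.56, Isg15 at -0.50 and Irf9 at 0.47. Of the 6 class II regulators and proteases, Rfxap, a subunit of the factor that binds the X box, was lower by 2-fold (16.8 and 33.7 CPM, -1.01, -1.23 to -0.79), and Ifi30, a lysosomal thiol reductase, was at 10.6 and 20.2 CPM (-0.93, -1.21 to -0.64).

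Reference cells were next grouped by the Tcrg-V gene they held, taking cells with UMIs of 1 such gene only. In WT, 510 cells held only Tcrg-V6, 392 only Tcrg-V4, 80 only Tcrg-V1 and 1011 none, and in the KO-labelled library 2098 held only Tcrg-V1, 358 only Tcrg-V4 and 3165 none. Tcrg-V6 cells had the highest levels of H2-K1, H2-D1, B2m, H2-Q6 and H2-T23 of these 7 groups. Groups with only Tcrg-V3, Tcrg-V5 or Tcrg-V7 are not among them and were small, with 13 to 80 cells each. Some of these stood above Tcrg-V6 cells. H2-K1 was at 4182 (3866 to 4517) and H2-T23 at 174 CPM in 46 WT Tcrg-V5 cells, and B2m at 2977 CPM in 16 KO-labelled Tcrg-V7 cells. The heavy chain sum was 9154 and 7742 CPM in Tcrg-V6 and Tcrg-V4 cells of WT (0.24, 0.21 to 0.28). H2-D1 stood at 3624 and 2879.9 CPM in these groups (0.33, 0.28 to 0.39), B2m at 2828 and 2299 (0.30, 0.24 to 0.36) and H2-K1 at 3766 and 3337 (0.17, 0.12 to 0.23). Among the non-classical genes H2-Q6 was at 498 and 331 CPM (0.59, 0.43 to 0.75), H2-T23 at 154 and 115 (0.42, 0.14 to 0.70), H2-M3 at 35.5 and 21.1 (0.75, 0.12 to 1.41) and H2-Q7 at 565 and 497 (0.19, 0.050 to 0.32). H2-Q4 was at 436 and 439 CPM, with an interval of -0.16 to 0.14. H2-T22 was lower in Tcrg-V6 cells, at 73.1 and 115 CPM (-0.65, -0.98 to -0.32). Nlrc5 was at 54.1 and 51.7 CPM, with an interval of -0.37 to 0.51.

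In the KO-labelled library Tcrg-V1 and Tcrg-V4 cells lay close together. All cells of this library were sorted as Vγ1-positive, while Tcrg-V1 had UMIs in only 43.4% of them. Its Tcrg-V4 cells passed the same gate and cannot be taken as a separate receptor subset. Other groups of this library differed more. Their heavy chain sum was 8339.5 CPM (8283 to 8396) with no Tcrg-V UMI, 6816 with several Tcrg-V genes and 8986 (8318 to 9692) in 16 Tcrg-V7 cells. The heavy chains summed to 7731 and 7576 CPM in Tcrg-V1 and Tcrg-V4 cells (0.029, with an interval that held 0), and 0 of 16 members were higher and 0 lower by 2-fold, where 2.23% and 0.751% of all genes were. In Tcrg-V6 over Tcrg-V4 cells of WT, 2 of 14 members were higher and 0 lower by 2-fold, where 5.38% and 4.66% of all genes were. These were Cd74 (129 and 21.1 CPM) and H2-Aa (19.1 and 3.40 CPM). Without reference cells of 10 or more class II UMIs H2-Aa went from 2.49 to 0.31 on the log2 scale and Cd74 from 2.61 to 1.5, and without cells holding other cell type markers Cd74 went to 4.19. Across libraries, the heavy chain sum of Tcrg-V1 cells of the KO-labelled library over Tcrg-V4 cells of WT was -0.0020 (-0.031 to 0.027) on the log2 scale, and over Tcrg-V6 cells -0.24 (-0.27 to -0.22). Of the groups with Tcrg-V1, Tcrg-V4, Tcrg-V6 or no Tcrg-V UMI, H2-Q6 was lower in the KO-labelled ones, at 258 (Tcrg-V1), 282 (Tcrg-V4) and 316 CPM (none). The WT ones stood at 331 (Tcrg-V4), 417 (none), 422 (Tcrg-V1) and 498 CPM (Tcrg-V6). The intervals of KO-labelled cells with none (305 to 327) and WT Tcrg-V4 cells (302 to 362) overlap, as do those of WT Tcrg-V1 cells (352 to 502) and each other of these WT groups. Among these groups H2-T22 was lowest in Tcrg-V6 cells and between 115 CPM (WT Tcrg-V4) and 178 CPM (WT Tcrg-V1) in the others. The small groups with only Tcrg-V3, Tcrg-V5 or Tcrg-V7 did not keep this order. There H2-Q6 was at 299, 343 and 429 CPM in KO-labelled and 86.6, 484 and 336 CPM in WT cells.

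**Figure D2:**
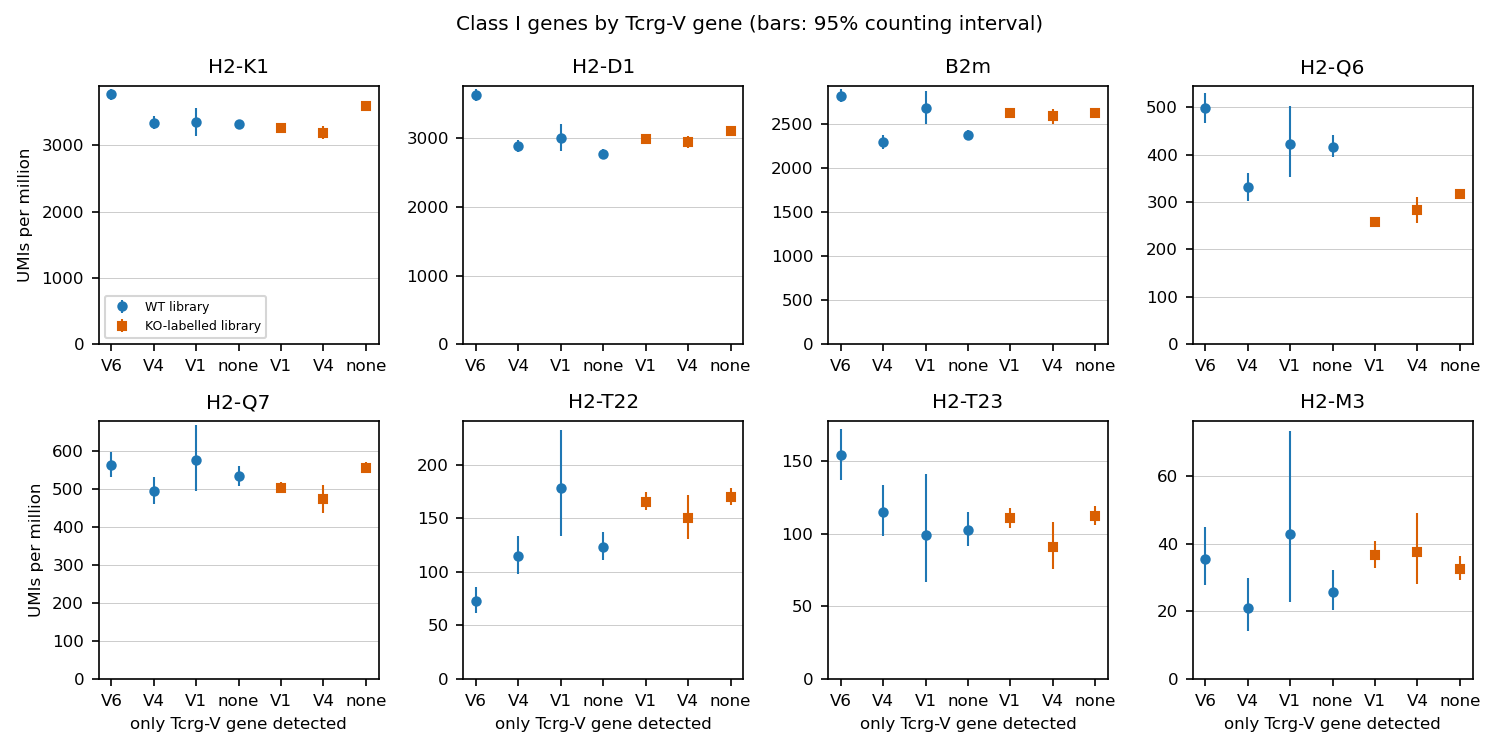
CPM (vertical axes from 0) of 8 class I genes in reference cells by the only Tcrg-V gene detected, for WT (blue circles) and KO-labelled (orange squares). Points are sums over cells with 95% counting intervals. Of the groups with Tcrg-V1, Tcrg-V4, Tcrg-V6 or no Tcrg-V UMI, WT Tcrg-V6 cells lie highest for H2-K1, H2-D1, B2m, H2-Q6 and H2-T23 and lowest for H2-T22.

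Other genes of the pathway separated the WT Tcrg-V groups in both directions. Of 13 antigen processing genes 9 lay above 0 in Tcrg-V6 over Tcrg-V4 cells, where 48.8% of all genes did, and 1 was lower by 2-fold, where 4.66% of all genes were, Tapbpl (36.6 and 94.5 CPM, -1.37, -1.80 to -0.95), an editor of class I peptides. The transporter genes Tap2 and Tap1 were at 0.61 and 0.56 and the chaperone gene Canx at 0.57. Of 9 interferon-related genes with 30 UMIs, 2 were lower by 2-fold, Ifit1 (-1.50, -2.53 to -0.54) and Irf9 (-1.05, -1.61 to -0.49). Among class II proteases, Ctss, which cuts the invariant chain, was lower (-1.22, -1.75 to -0.70) and Ifi30 higher (1.94, 1.13 to 2.85). In Tcrg-V1 over Tcrg-V4 cells of the KO-labelled library none of the 3 lists had a member past 2-fold. The myeloid list came to 302 CPM with UMIs in 61.0% of Tcrg-V6 cells and to 161 CPM with UMIs in 41.3% of Tcrg-V4 cells in WT, and its part in these differences was not tested. Among the 2371 WT reference cells with under 10 class II UMIs, 1018 held a UMI of this list and 958 a UMI of the gene Cst3. A UMI of the list therefore does not mark a cell as myeloid.

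Ly6c2 encodes the surface antigen Ly6C, known from effector and memory T cells and monocytes. Cells with a Ly6c2 UMI held more class I than cells without it in the KO-labelled library. There, H2-Q6 stood at 451 and 211 CPM in 1586 Ly6c2-positive and 4918 negative cells, a log2 ratio of 1.09 (1.03 to 1.16). H2-Q7 was at 679 and 445 CPM (0.61, 0.56 to 0.66), H2-Q4 at 549 and 363 (0.60, 0.54 to 0.65), H2-T22 at 215 and 145 (0.57, 0.48 to 0.67) and H2-M3 at 42.9 and 31.9 (0.43, 0.22 to 0.63). The classical genes differed less, H2-K1 at 3959.5 and 3103 CPM (0.35, 0.33 to 0.37) and H2-D1 at 3249 and 2900.4 (0.16, 0.14 to 0.19), with B2m at 2924 and 2519 (0.22, 0.19 to 0.24). Of 9 heavy chain genes with 30 UMIs, 9 lay above 0, H2-T24 with an interval that held 0, where 35.3% of all genes did. Their median was 0.43 against -0.091 over all genes. Of 19 members 1, H2-Q6, was higher by 2-fold and 1, H2-Eb1 (0.753 and 1.55 CPM, -2.77 to 0.34), lower, where 1.18% and 4.73% of all genes were.

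In WT the same split gave differences in both directions. They were smaller than in the KO-labelled library for H2-Q7, H2-Q6, H2-Q4 and H2-K1, but larger for H2-T22. H2-T22 was at 170.1 and 97.7 CPM in 423 Ly6c2-positive and 1959 negative cells (0.80, 0.60 to 1.0), H2-Q7 at 692 and 501 (0.47, 0.37 to 0.56), H2-Q6 at 512 and 388 (0.40, 0.29 to 0.51), H2-Q4 at 489.5 and 409 (0.26, 0.15 to 0.37) and H2-K1 at 3852 and 3417 (0.17, 0.13 to 0.21). H2-D1 was lower, at 2848 and 3177 CPM (-0.16, -0.20 to -0.11), as was H2-T23 at 105 and 134 (-0.35, -0.58 to -0.12). When the total left out mitochondrial, ribosomal and T cell receptor genes, every WT ratio of this split was higher by 0.13, nearly the size of the H2-D1 difference. Within Tcrg-V4 cells of WT H2-D1 was at -0.067 (-0.16 to 0.030) and within cells with no Tcrg-V UMI at 0.020 (-0.047 to 0.087). H2-Q6 in these groups was at 0.54 and 0.86, and in the KO-labelled library at 1.14 within Tcrg-V1 cells and 1.02 within cells with no Tcrg-V UMI. Among the 510 Tcrg-V6 cells 15 held a Ly6c2 UMI, and there H2-Q6 was at -0.45 (-0.97 to 0.023). Of 19 members 0 were higher by 2-fold and 4 lower, Cd74 (18.5 and 106 CPM), H2-Aa, H2-Ab1 and H2-Eb1, where 2.74% and 8.53% of all genes were. After thinning to 2000 UMIs Cd74 was at -0.76, H2-Aa at -0.75 and H2-Eb1 at -0.17, and without reference cells of 10 or more class II UMIs at -0.98, -0.49 and 0.25. Within Tcrg-V4 cells of WT the sum of the 4 genes was at -0.14 (-1.23 to 0.86). The epithelial markers stood at 21.7 CPM in Ly6c2-positive and 511 CPM in negative WT cells, and their part was not tested.

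**Figure D3:**
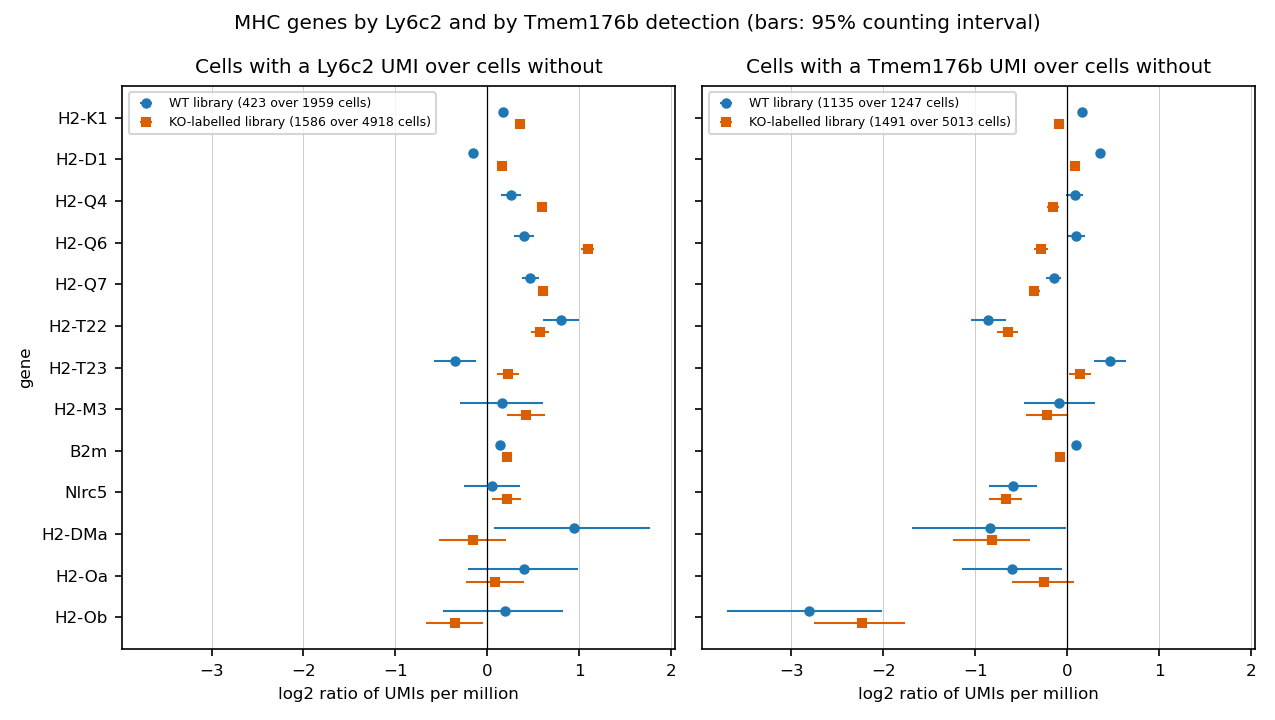
log2 ratio of CPM in cells with over cells without a Ly6c2 UMI (left) or a Tmem176b UMI (right), with 95% counting intervals, for 13 MHC genes in reference cells of WT (blue circles) and KO-labelled (orange squares). H2-Q6 is at 1.09 in KO-labelled and 0.40 in WT cells by Ly6c2, and H2-Ob at -2.24 and -2.80 by Tmem176b.

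The level of H2-Q6 followed the number of Ly6c2 UMIs per cell in the KO-labelled library. Cells with 0, 1, 2 to 3 and 4 or more Ly6c2 UMIs held 211, 365, 438 and 487 CPM of H2-Q6. In WT the corresponding levels were 388, 519, 529 and 505 CPM. Cells without Ly6c2 had a log2 ratio of KO-labelled over WT of -0.88 (-0.95 to -0.81) and cells with it -0.18 (-0.29 to -0.076). H2-Q7 over the same steps was at 445, 618, 657 and 709 CPM in the KO-labelled library and 501, 654, 744 and 686 in WT. The ratio of H2-Q6 to H2-Q7 UMIs was 0.665 (0.634 to 0.696) in Ly6c2-positive and 0.474 (0.457 to 0.493) in negative KO-labelled cells, and 0.739 (0.679 to 0.804) and 0.775 (0.735 to 0.816) in WT. After thinning all cells to 2000 UMIs, an H2-Q6 UMI was found in 56.2% of Ly6c2-positive and 29.0% of negative KO-labelled cells (72.1% and 39.7% unthinned), and in 59.3% and 46.4% of WT cells (79.4% and 53.9%). No cell type here is known to lack class I, so these shares have no background group.

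**Figure D4:**
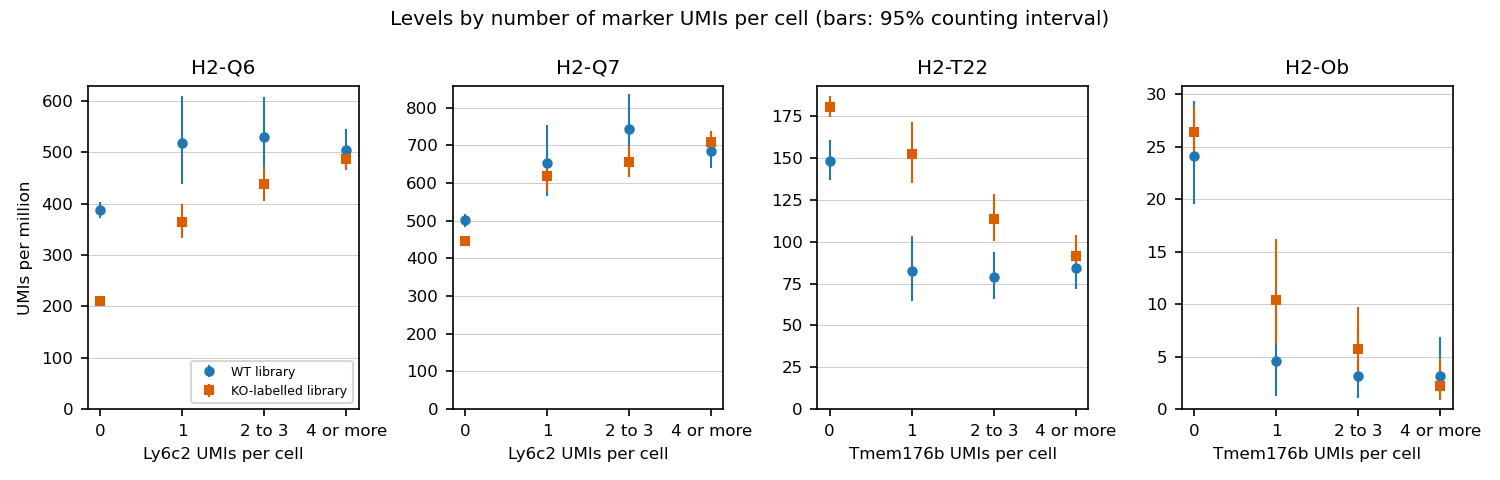
CPM (vertical axes from 0, with 95% counting intervals) of H2-Q6 and H2-Q7 by the number of Ly6c2 UMIs per cell, and of H2-T22 and H2-Ob by the number of Tmem176b UMIs per cell, in reference cells of WT (blue circles) and KO-labelled (orange squares). In KO-labelled cells H2-Q6 stands at 211, 365, 438 and 487 CPM over the Ly6c2 steps and H2-Ob at 26.4, 10.4, 5.71 and 2.24 over the Tmem176b steps.

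Markers of natural killer cells (Ncr1, Klra8, Klrb1c and Eomes) were higher with Ly6c2. Their sum was 97.0 CPM with UMIs in 20.1% of Ly6c2-positive and 12.2 CPM with UMIs in 2.86% of negative WT cells, where Ncr1 was at 0, and 54.3 CPM with UMIs in 13.9% and 10.7 CPM with UMIs in 2.66% of KO-labelled cells. T cell markers had UMIs in 99.3% and 99.9% of the Ly6c2-positive cells, and the part of the killer cell markers in the class I differences was not tested. Among the antigen processing genes 0 of 13 passed 2-fold in either library. The genes farthest from 0 in KO-labelled cells were Tap1 (0.57, 0.43 to 0.70), Psmb9 (0.52), Psmb10 (0.50) and the folding factor gene Pdia3 (-0.36), and in WT Tapbpl (0.75), Psmb9 (0.66), Pdia3 (-0.61) and Tap2 (-0.43). Of the interferon-related genes, Ifit3 was at 13.2 and 1.53 CPM in WT (3.11, 2.0 to 4.33) and at 9.33 and 5.36 in KO-labelled cells (0.80, 0.32 to 1.27), and it was the 1 gene of 10 past 2-fold, in WT. Of the class II proteases, Ifi30 was lower in WT (-1.38, -2.20 to -0.65) and Lgmn, a lysosomal endopeptidase gene, lower in KO-labelled cells (-1.50, -2.32 to -0.77).

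Tmem176b encodes a membrane protein that is abundant in IL-17-producing T cells, and was detected in 1135 WT and 1491 KO-labelled reference cells. H2-Ob, the β chain of H2-O, which holds back peptide exchange by H2-DM, was lower in Tmem176b-positive cells of both libraries. It stood at 3.45 and 24.1 CPM in positive and negative WT cells (-2.80, -3.70 to -2.01) and at 5.60 and 26.4 in KO-labelled cells (-2.24, -2.75 to -1.76). An H2-Ob UMI was found in 1.32% and 6.66% of these WT cells and in 2.48% and 8.34% of the KO-labelled cells. After thinning to 2000 UMIs the shares were 0.751% and 4.31% in WT, and 1.38% and 4.57% in KO-labelled cells. Lyz2-positive cells, with a median of 4323 and 3808 UMIs, held an H2-Ob UMI in 3.61% (3 of 83, 0.752 to 10.2) in WT and 5.06% (4 of 79, 1.40 to 12.5) in KO-labelled. The share in Tmem176b-positive cells was not above that of Lyz2-positive cells, and the share in negative cells lay within its interval. Since T cell markers had UMIs in 57.8% and 75.9% of the Lyz2-positive cells, these are no clean background and cannot decide whether the shares are signal. Over 0, 1, 2 to 3 and 4 or more Tmem176b UMIs, H2-Ob was at 26.4, 10.4, 5.71 and 2.24 CPM in KO-labelled and 24.1, 4.57, 3.18 and 3.15 in WT cells. Within Tcrg-V1 cells of the KO-labelled library it was at -2.45 (-3.31 to -1.69) and within WT cells with no Tcrg-V UMI at -2.80 (-5.12 to -1.18).

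H2-T22 and the transactivator Nlrc5 were also lower with Tmem176b in both libraries. H2-T22 was at 81.8 and 148 CPM in WT (-0.86, -1.05 to -0.67) and 115 and 181 in KO-labelled cells (-0.65, -0.76 to -0.53). Nlrc5 was at 48.5 and 72.8 (-0.59, -0.85 to -0.33) and 44.8 and 71.3 (-0.67, -0.85 to -0.49). H2-T22 was at -0.94, -0.90 and -0.94 within WT cells with Tcrg-V4, Tcrg-V6 and no Tcrg-V UMI, and at -0.67 and -0.62 within KO-labelled cells with Tcrg-V1 and none. H2-Q7 was lower as well (-0.15 in WT and -0.36 in KO-labelled cells), as was H2-DMa (-0.83 and -0.81). H2-Ke6 was higher (0.48 and 0.45), as were H2-T23 (0.47, 0.29 to 0.64, and 0.14, 0.021 to 0.26) and H2-D1 (0.36, 0.32 to 0.39, and 0.083, 0.061 to 0.11). H2-K1, B2m and H2-Q6 had opposite signs in the libraries. H2-K1 was at 3709.6 and 3306 CPM in WT (0.17, 0.13 to 0.20) and 3186 and 3379.8 in KO-labelled cells (-0.085, -0.11 to -0.063).

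The class II sum went the opposite way to H2-Ob with Tmem176b in WT. It was 172 and 69.1 CPM in positive and negative WT cells (1.31, 1.11 to 1.52). This turned to -0.58 when cells were thinned to 2000 UMIs, and it was -1.20 within Tcrg-V4 cells, -1.55 within Tcrg-V6 cells and 3.68 within cells with no Tcrg-V UMI. In the KO-labelled library it was 24.8 and 18.9 CPM (0.39, 0.12 to 0.66) and turned to -0.58 with thinning as well. The 5 epithelial markers summed to 759.7 CPM with UMIs in 4.85% of Tmem176b-positive and 18.2 CPM with UMIs in 5.29% of negative WT cells, where Krt8 was at 0, and their part was not tested. Of 19 members, 4 were higher (Cd74, H2-Aa, H2-Ab1 and H2-Eb1) and 1 lower (H2-Ob) by 2-fold in WT, where 5.68% and 8.26% of all genes were. Without reference cells of 10 or more class II UMIs these 4 were at 0.69, 0.013, 0.69 and -1.86. In the KO-labelled library 1 was higher (H2-Eb1, 2.21 and 1.03 CPM) and 1 lower (H2-Ob), where 6.69% and 5.73% were.

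Several interferon-related genes were lower with Tmem176b. In WT 1 of 10 lay above 0, where 39.7% of all genes did, and 3 were lower by 2-fold, Ifit3 (1.15 and 7.37 CPM, -2.68), Irf9 (-1.16) and Irf1 (216 and 467 CPM, -1.11, -1.22 to -1.0). In KO-labelled cells 2 of 10 lay above 0, where 41.8% of all genes did, and 2 were lower by 2-fold, Ifit3 (-1.15) and Irf1 (286 and 575 CPM, -1.0, -1.08 to -0.94). Irf1 and Irf9 are transcription factors of the interferon response. Of the antigen processing genes 0 of 13 passed 2-fold in either library. The folding factor genes Calr (0.72 and 0.60) and Pdia3 (0.71 and 0.82) were higher, and the immunoproteasome gene Psmb9 was lower (-0.70 and -0.54). Ifi30 was higher (1.85, 1.31 to 2.43, and 1.47, 1.11 to 1.83).

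Cells with a Ly6c2 UMI and no Tmem176b UMI were also set against cells with Tmem176b and no Ly6c2, 383 and 1095 cells in WT and 1423 and 1328 in the KO-labelled library. H2-T22 was at 180.5 and 80.0 CPM in WT (1.17, 0.94 to 1.41) and at 216 and 102 in KO-labelled cells (1.08, 0.94 to 1.23). H2-Ob was at 16.1 and 3.19 CPM (2.34, 1.33 to 3.42) and at 18.4 and 5.05 (1.87, 1.27 to 2.50). Both genes thus stood higher in the Ly6c2 cells of each library. H2-Q6 was at 522 and 429 CPM in WT (0.28, 0.16 to 0.40) and at 459.8 and 215 in KO-labelled cells (1.10, 1.0 to 1.19). H2-D1 was at 2786 and 3488 CPM in WT (-0.32, -0.37 to -0.28) and at 3231 and 3085 in KO-labelled cells (0.067, 0.037 to 0.096). The heavy chain sum was at -0.030 (-0.058 to -0.0017) in WT and 0.33 (0.31 to 0.35) in the KO-labelled library. Of 17 members in WT 2 were higher and 4 lower by 2-fold, where 6.26% and 10.1% of all genes were, and of 16 in the KO-labelled library 3 and 0, where 4.73% and 7.97% were. These cells also enter the comparisons by each gene alone.

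Class II was high in the few cells with a Lyz2 or a Cd79a UMI. There were 83 WT and 79 KO-labelled cells with Lyz2 only, 37 and 48 with Cd79a only, and 3 with both in each library. The comparisons by Lyz2 and by Cd79a share the reference cells. The class II sum of Lyz2-positive and reference cells was 9684 and 122 CPM in WT (6.31, 6.21 to 6.41) and 6369 and 20.5 in KO-labelled cells (8.28, 8.14 to 8.42). In Cd79a-positive cells it was 24677 CPM (7.66, 7.56 to 7.76) and 12689 (9.28, 9.14 to 9.41). Class II was thus higher in the Cd79a-positive than in the Lyz2-positive cells of each library. Cd74 was at 6457 and 4250.4 CPM in WT and KO-labelled cells with Lyz2 and at 16599.7 and 8958 with Cd79a, H2-Aa at 1615 and 909 and at 3794 and 1686, H2-Ab1 at 826 and 503 and at 1977 and 875, and H2-Eb1 at 787 and 706 and at 2307 and 1171. T cell markers had UMIs in 57.8% and 75.9% of the Lyz2-positive and in 37.8% and 79.2% of the Cd79a-positive cells, against 96.4% and 98.2% of reference cells. No UMI of the class II sum was found in 45.8% and 54.4% of the Lyz2-positive and in 18.9% and 45.8% of the Cd79a-positive cells.

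The peptide editors differed between these cells. H2-DMb2 was at 605 and 287 CPM in Cd79a-positive WT and KO-labelled cells and at 4.90 and 2.71 in Lyz2-positive cells, where it rested on 2 and 1 UMIs, while H2-DMb1 was at 127 and 59.5 CPM with Lyz2 and at 30.7 and 27.3 with Cd79a. The transcripts of these neighbours share 22.7% of the H2-DMb1 stretches. Both H2-O chains, which are typical of B cells, were high with Cd79a, H2-Ob at 406 and 169 CPM and H2-Oa at 176 and 36.5. With Lyz2 they were at 9.80 and 10.8 and at 9.80 and 2.71 CPM. H2-DMa was high with both, at 129.9 and 59.5 CPM with Lyz2 and 229.9 and 68.3 with Cd79a. Ciita had 4 and 3 UMIs with Lyz2 and 2 and 2 with Cd79a. The proteases went with Lyz2, Ctss at 733 and 403 CPM, Lgmn at 292 and 243 and Ifi30 at 323 and 208, and 3 of 6 regulators and proteases were higher by 2-fold in each library. With Cd79a 3 were higher in WT, and 4 were higher and 1 lower in KO-labelled cells. Of 13 antigen processing genes 0 were past 2-fold with Lyz2 in either library, and with Cd79a 4 were lower in WT (Erap1, Pdia3, Tapbpl and Psme2) and 0 in KO-labelled cells.

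Class I was somewhat lower in these cells. The heavy chains summed to 6300.3 CPM with Lyz2 in WT (-0.39, -0.45 to -0.34) and to 6994 in KO-labelled cells (-0.16, -0.22 to -0.11). With Cd79a they summed to 5725 (-0.53, -0.64 to -0.43) and 6693 CPM (-0.23, -0.30 to -0.15). In WT, H2-Q6 was at 201 CPM with Lyz2 (-1.05, -1.38 to -0.73), H2-Q7 at 272 (-1.0), H2-Q4 at 221 (-0.95) and H2-K1 at 2507 (-0.49), while the interval of B2m held 0 (-0.096 to 0.085). In the KO-labelled library H2-Q6 was at 265 CPM with Lyz2 (-0.049, -0.35 to 0.24). Of 20 members, 6 were higher and 2 lower (H2-Q6 and H2-Ke6) by 2-fold with Lyz2 in WT, where 9.09% and 12.1% of all genes were, and 7 and 1 (H2-Oa) in KO-labelled cells, where 8.45% and 6.33% were. The H2-Oa call rests on 1 of 79 Lyz2-positive KO-labelled cells with a UMI. With Cd79a 8 were higher and 0 lower in WT, where 12.3% and 9.13% were, and 8 and 1 (Nlrc5) in KO-labelled cells, where 8.79% and 6.5% were. With the mean of per-cell CPM, H2-Ke6 with Lyz2 in WT was at -0.53 and Nlrc5 with Cd79a in KO-labelled cells at -0.60, both within 2-fold. H2-T24, with 0 UMIs in the WT Cd79a-positive cells, got no value. The members higher by 2-fold were class II genes, except H2-T24 with Lyz2 in the KO-labelled library (1.26, -0.64 to 2.66, and 0.89 with the mean of per-cell CPM). The myeloid list had UMIs of 9 of 9 genes in Lyz2-positive and the B cell list of 8 of 8 in Cd79a-positive cells of both libraries. Lyz2 and Cd79a themselves define the groups.

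**Figure D5:**
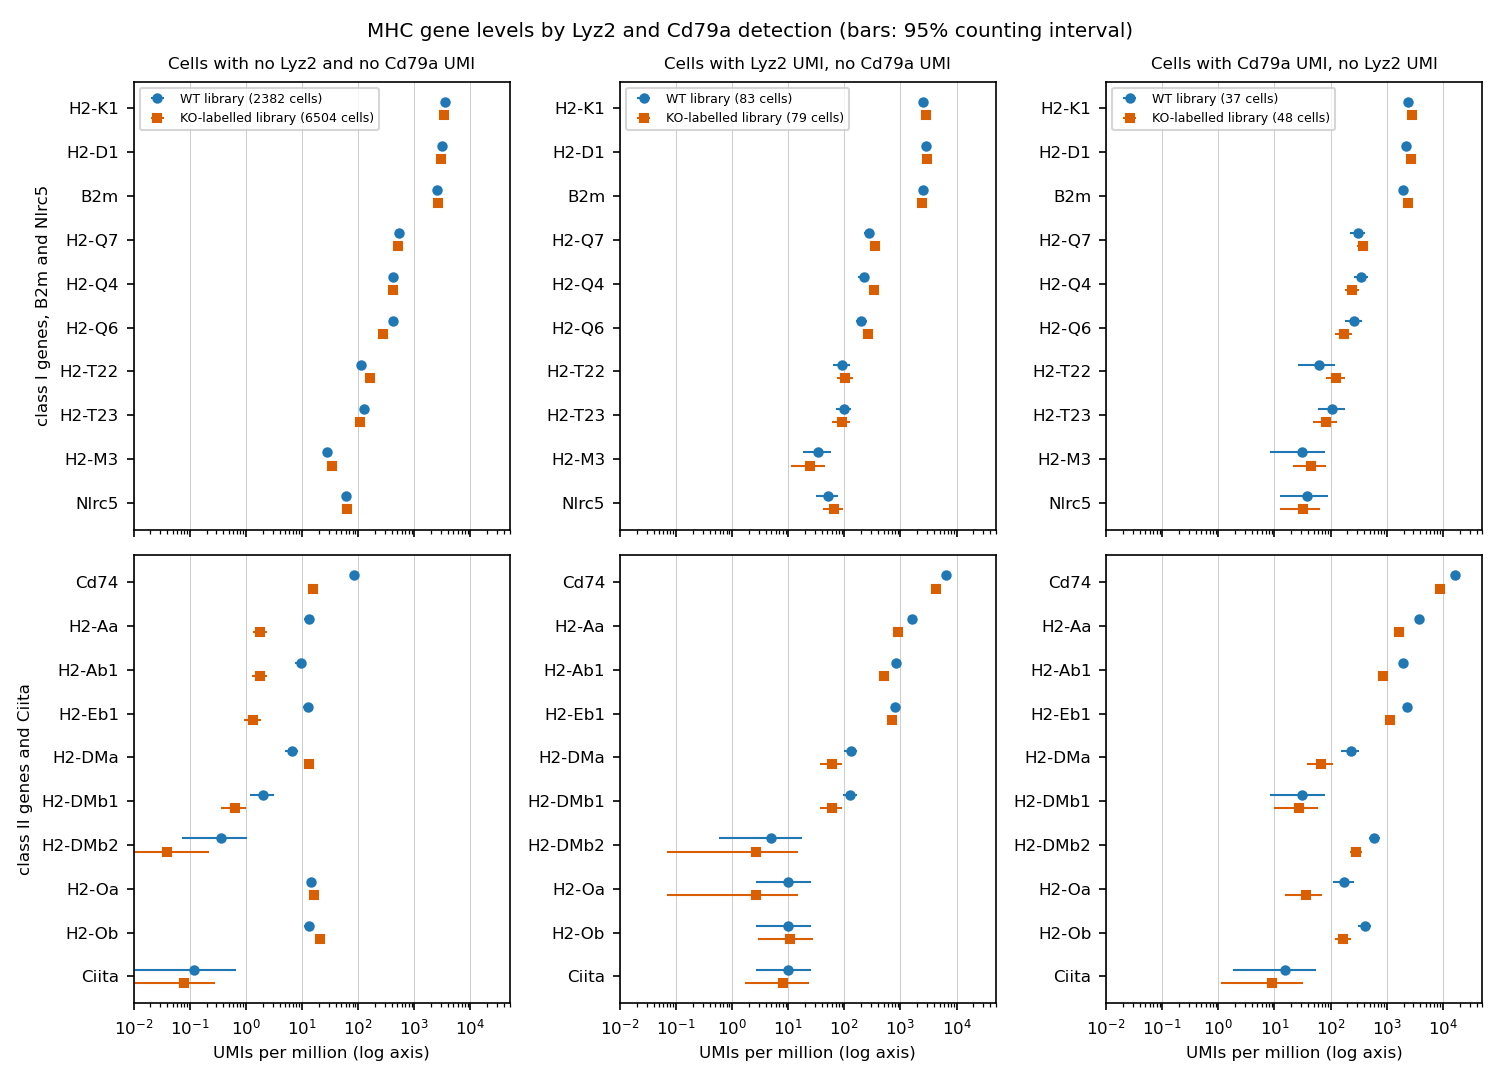
CPM (log axis, values at 0 not drawn) of 10 class I related genes (top) and 10 class II related genes (bottom) in reference cells, Lyz2-positive cells and Cd79a-positive cells of WT (blue circles) and KO-labelled (orange squares), with 95% counting intervals and numbers of cells in the legend. H2-K1, H2-D1 and B2m stay the highest class I related genes in each panel, while Cd74 stands at 86.1 and 15.5 CPM in WT and KO-labelled reference cells and at 6457 and 4250.4 with Lyz2.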

How the data were processed

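Lung γδ T cells were sorted and sequenced as 2 droplet libraries, 1 per group. The authors deposited filtered matrices of raw UMI counts per gene and cell, made with Cell Ranger 7.0 per the processing notes (7.0.0 in the file headers) on mm10. The labels name a 3′ protocol and the study's methods a 5′ kit, so which transcript end was read is unsure. Cells with over 200 and under 4000 genes and under 10% mitochondrial UMIs were kept (15 WT and 54 KO-labelled cells left out). No doublet caller was run; cells above the 95th percentile of UMIs were left out in an alternative. UMIs were summed over cells and given per 1000000 UMIs (CPM) with Python 3.11.15, numpy 2.4.6, scipy 1.17.1 and pandas 2.3.3, and drawn with matplotlib 3.10.9. A UMI stands for 1 captured molecule, so levels were not divided by length. Since each group is 1 library, no p-value was computed, and the log2 ratios carry counting intervals only. For shares of cells, cells were also thinned to 2000 UMIs, leaving out 380 WT and 828 KO-labelled cells. A count of 0 allows up to 3 UMIs or cells. Gene coordinates were matched to GENCODE M21 for 32235 of 32285 identifiers. Members with at least 30 UMIs over both libraries were named with values, and of each pathway list up to 4 genes farthest from 0. The script for the ratios was tested on simulated data. Members and lists were chosen with earlier results of these data known. In all, 8 alternatives were planned and 1 was chosen after seeing the data.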

Additional observations from a re-analysis of the deposited data

Results flagged for a closer look

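For 5 genes and the heavy chain sum, the log2 ratio had opposite signs in the WT and KO-labelled libraries, with counting intervals on either side of 0, and the difference between the libraries was not tested. By Ly6c2, H2-D1 was at -0.16 (-0.20 to -0.11) in WT and 0.16 (0.14 to 0.19) in the KO-labelled library, and H2-T23 at -0.35 (-0.58 to -0.12) and 0.23 (0.11 to 0.35). Within WT Tcrg-V4 cells these genes were at -0.067 and -0.27, and within WT cells with no Tcrg-V UMI at 0.020 and -0.028. A total without mitochondrial, ribosomal and T cell receptor genes moved every ratio of the WT split by 0.13 and of the KO-labelled split by 0.058.

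By Tmem176b, H2-K1 was at 0.17 (0.13 to 0.20) in WT and -0.085 (-0.11 to -0.063) in the KO-labelled library, B2m at 0.091 (0.052 to 0.13) and -0.082 (-0.11 to -0.057), H2-Q6 at 0.10 (0.0054 to 0.20) and -0.28 (-0.37 to -0.20), and the heavy chain sum at 0.20 (0.18 to 0.22) and -0.054 (-0.068 to -0.039). Within WT Tcrg-V6 cells, of which 448 held a Tmem176b UMI and 62 did not, the sum was at 0.27 (0.19 to 0.35). Within WT Tcrg-V4 cells it was at -0.019 (-0.073 to 0.035) and within WT cells with no Tcrg-V UMI at 0.083 (0.040 to 0.12). H2-Q6 was at 0.65, -0.24 and -0.38 in these groups. In the KO-labelled library the sum was at -0.019 (-0.042 to 0.0041) within Tcrg-V1 cells.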

How the results depend on the processing

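No paired analysis was possible because no result comes from a test, with 1 library per group, and for that reason no replicate could be left out. The values below are log2 ratios, in the order in which the comparisons are named, and the cause of each move was not tested. The heavy chain sum of KO-labelled over WT cells went to -0.0035 with the mean of per-cell CPM, -0.049 with a total without mitochondrial, ribosomal and T cell receptor genes, -0.018 in reference cells without other cell type markers and -0.10 in cells that held Xist but no Y-linked UMI. By Ly6c2 it went to 0.19 (mean per cell) and 0.22 (other total) in WT, and to 0.40 (other total), 0.36 (at least 2 marker UMIs) and 0.36 (no other markers) in the KO-labelled library. By Tmem176b it went to 0.15 (thinned), 0.31 (mean per cell), 0.14 (other total), 0.23 (2 marker UMIs) and 0.24 (no other markers) in WT and to -0.025, -0.023, -0.10, -0.090 and -0.025 in the KO-labelled library. In Tcrg-V6 over Tcrg-V4 cells it went to 0.17 (other total) and 0.28 (no other markers). The class II sum with Lyz2 went, in WT and KO-labelled cells, to 6.09 and 8.72 with no cell filter, 6.52 and 8.60 thinned, 6.43 and 7.70 with the mean per cell, 6.63 and 9.07 with 2 marker UMIs, 7.37 and 8.62 without other markers, 7.78 and 8.67 without reference cells of 10 or more class II UMIs, an alternative chosen after seeing the data, and in WT to 5.72 without cells above the 95th percentile of UMIs. With Cd79a it went to 8.21 and 10.00 thinned, 8.38 and 8.87 with the mean per cell, 8.04 and 10.21 with 2 marker UMIs, 8.72 and 9.62 without other markers and 9.12 and 9.66 without the high reference cells, to 8.21 in WT without cells above the 95th percentile and to 9.10 in KO-labelled cells with no cell filter. Signs turned for H2-K1 (0.0034), H2-D1 (0.016) and H2-Q7 (0.0069) of KO-labelled over WT and Nlrc5 by Ly6c2 in the KO-labelled library (-0.063) with the mean per cell, and for H2-Eb1 by Ly6c2 in WT without other markers (0.41) and without high reference cells (0.25). By Tmem176b in WT, thinning turned H2-Ab1 (-0.18), H2-Aa (-0.74), H2-Eb1 (-2.47), Cd74 (-0.45) and the class II sum (-0.58), and H2-Eb1 also turned with 2 marker UMIs (-0.57), without other markers (-0.79) and without high reference cells (-1.86). In the KO-labelled library H2-Eb1 turned thinned (-0.072) and with 2 marker UMIs (-0.023), and the class II sum thinned (-0.58), with 2 marker UMIs (-0.17), without other markers (-0.36) and without high reference cells (-0.15). With at least 100 UMIs per gene, members higher by 2-fold went from 2 to 1 in Tcrg-V6 over Tcrg-V4 cells, members lower by Ly6c2 in the KO-labelled library from 1 to 0, and members higher by Tmem176b there from 1 to 0. Of the other values under an alternative, 256 moved outside their counting interval and 1224 stayed within it with the sign kept, and 58 turned sign where the interval already held 0. These include Cd74 (0.25 to -0.75 thinned), H2-Aa (0.68 to -0.40 thinned) and H2-Ab1 (0.73 to -0.58 with 2 marker UMIs) by Tmem176b and H2-Aa by Ly6c2 (0.30 to -1.05 without other markers) in the KO-labelled library, and H2-Oa (0.19 to -0.067 thinned) and Nlrc5 (0.093 to -0.10 in cells with Xist but no Y-linked UMI) of KO-labelled over WT. Members with few UMIs, such as the class II genes of reference cells, H2-T24 and H2-Q2, have wide intervals.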
